A study of Mus musculus with 15 samples.

Results

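The extracellular matrix genes of the mouse kidney were followed through 3 groups of 5 animals each. The list holds 45 genes, chosen by name: fibrillar and other collagens, the type IV collagens and further basement membrane components, glycoproteins and elastic fibre proteins, small proteoglycans, and the enzymes and inhibitors that remodel the matrix. Of these, 38 had at least 1 annotated transcript listed in all 15 mice, among 13940 such genes in the whole data set. The mice were male wild-type C57BL/6 animals, obtained at 8 weeks of age, and renal tissue was sequenced. Control mice were infused with saline for 28 days, Ang II mice received angiotensin II at 500 ng/kg/min through osmotic pumps for the same time, and Ang II + QDG mice received the same infusion with Qingda granule, a mixture of extracts of medicinal herbs, at 1.145 g/kg/day by mouth. Control and Ang II mice were given water by mouth in its place. The groups address which matrix genes change under angiotensin II, a hormone that raises blood pressure, and which differ when QDG is added.

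Collagens are trimers of alpha chains. Type I and type III collagen form the fibres of the interstitium, whereas type IV collagen forms the sheet-like network of basement membranes, with the chains of Col4a1 and Col4a2 in nearly all basement membranes and those of Col4a3, Col4a4 and Col4a5 in the mature glomerular basement membrane and in some tubule segments. Lysyl oxidases cross-link collagen and elastin, matrix metalloproteinases cleave matrix proteins, and tissue inhibitors of metalloproteinases block that cleavage. Build-up of matrix is a known feature of hypertensive kidney disease.

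The type IV collagen genes lie in pairs that are transcribed away from each other from a common region, so their start regions are printed here. In GENCODE M21 on GRCm38, the starts of Col4a1 and Col4a2 on chromosome 8 are 21 bases apart, those of Col4a3 and Col4a4 on chromosome 1 are 72 bases apart, and those of Col4a5 and Col4a6 on chromosome X are 1309 bases apart. The windows are from RefSeq on GRCm38.p6, each from 250 bases before to 50 bases after the start, 5′ to 3′ on the strand of the gene. Capitals mark GGGCGG, the core of the GC box, and CCAAT, searched on both strands, so that CCGCCC and ATTGG are also in capitals. The Col4a1 window is chr8:11312777-11313076 on the minus strand, the Col4a2 window is chr8:11312555-11312854 on the plus strand, and they overlap by 78 bases. The Col4a4 window is chr1:82586800-82587099 on the minus strand and holds the start of Col4a3 at its base 179, and the Col8a1 window is chr16:57754688-57754987 on the minus strand and is shown because Col8a1 was the only other collagen among the 45 listed genes that passed the test.
Col4a1: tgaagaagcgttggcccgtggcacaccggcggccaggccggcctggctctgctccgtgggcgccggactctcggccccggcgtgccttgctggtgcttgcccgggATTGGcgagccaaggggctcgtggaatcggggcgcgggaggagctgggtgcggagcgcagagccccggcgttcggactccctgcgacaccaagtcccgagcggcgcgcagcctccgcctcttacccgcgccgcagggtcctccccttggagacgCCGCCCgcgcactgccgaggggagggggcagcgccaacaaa
Col4a2: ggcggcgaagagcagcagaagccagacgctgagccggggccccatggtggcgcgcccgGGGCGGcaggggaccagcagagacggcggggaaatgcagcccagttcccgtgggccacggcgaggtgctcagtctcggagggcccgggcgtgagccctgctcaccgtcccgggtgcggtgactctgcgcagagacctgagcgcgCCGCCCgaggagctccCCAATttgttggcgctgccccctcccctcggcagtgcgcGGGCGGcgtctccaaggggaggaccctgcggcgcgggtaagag
Col4a4: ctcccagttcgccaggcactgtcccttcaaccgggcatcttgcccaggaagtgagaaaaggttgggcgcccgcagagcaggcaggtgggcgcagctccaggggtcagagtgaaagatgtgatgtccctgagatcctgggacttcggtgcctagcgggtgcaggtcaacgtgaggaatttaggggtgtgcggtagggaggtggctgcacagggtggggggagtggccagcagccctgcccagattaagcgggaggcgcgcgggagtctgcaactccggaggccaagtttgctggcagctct
Col8a1: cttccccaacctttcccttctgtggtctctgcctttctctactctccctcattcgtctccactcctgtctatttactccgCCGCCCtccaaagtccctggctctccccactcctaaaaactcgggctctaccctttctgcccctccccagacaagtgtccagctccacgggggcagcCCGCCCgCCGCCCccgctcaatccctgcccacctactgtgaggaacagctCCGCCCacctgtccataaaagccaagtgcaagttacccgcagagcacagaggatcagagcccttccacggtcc
The Col4a1 window held 1 GC box and 1 CCAAT box, the Col4a2 window 3 and 1, the Col8a1 window 4 and 0, and the Col4a4 window held neither. A GC box was present in 35.6% and a CCAAT box in 37.4% of the 32817 promoter windows of the RefSeq table. Of the 45 matrix genes 31 had a window there, and 26 of their 37 windows held a GC box and 13 a CCAAT box.

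The values were 1 FPKM per transcript and mouse, summed per gene over the annotated transcripts listed in all mice. FPKM is fragments per kilobase of transcript, scaled to the fragments of the library, so levels of different genes can be compared. The implied total was 68922698 to 81329550 reads per mouse. Tubule genes marked the tissue as kidney in every mouse, with Lrp2, the proximal tubule receptor megalin, at 188 to 237 FPKM and Umod, the uromodulin of the thick ascending limb, at 695 to 1308 FPKM. Some libraries stood apart. The fat gene Cfd was 71.4 FPKM in Ang II mouse 1, 33.3 in Control mouse 2 and 26.7 in Ang II + QDG mouse 5, and at most 7.81 in the other mice. Ang II mice 2 and 5 had low Slc12a1, the sodium transporter of the thick ascending limb, at 18.0 and 42.1 FPKM against at least 68.0 in every other mouse, and high Slc12a3, the sodium transporter of the distal convoluted tubule, at 142 and 130 FPKM against at most 96.9.

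The type IV collagen genes Col4a1, Col4a2 and Col4a3, the elastin gene Eln and 3 other matrix genes were higher in Ang II than in Control. Of the 34 matrix genes that could be tested, 7 were higher in Ang II vs. Control at an adjusted p under 0.05 and 0 were lower, where 4.95% of all 12372 genes tested were higher and 0.994% lower (limma, Benjamini-Hochberg adjustment over all genes). The other 3 were Col8a1, Sparc and Loxl2, and of the 6 type IV collagen genes 4 were tested and 3 passed. At an unadjusted p under 0.05, 16 of 34 were higher and 0 lower, beside 17.9% of all genes higher and 4.83% lower. The 16 include Col5a1, which passed the filter described below through infused mice alone. For 5 of 34 all Ang II mice were above all Control mice, beside 6.49% of all genes. In 30 of 34 the fitted change was above 0, against 64.8% of all genes, and the median log2 fold change was 0.37 against 0.083 over all genes. Without Ang II mouse 1, the library with the most Cfd, that median was 0.22. Of all calls 612 of 735 were higher, against 227 of 495 with quantile normalization and 200 of 470 with median scaling, where 4 members were higher and 0 lower. The test used log2(FPKM + 1), which understates the fold change of genes with low FPKM, and a gene needed at least 1 FPKM in at least 5 mice. Renal tissue is a mixture, so more cells of a type and more RNA per cell cannot be told apart.

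Of the type IV collagens, Col4a2 and Col4a3 were lower in mice given QDG than in Ang II mice. When mice given QDG were compared with Ang II mice, these 2 of 34 genes were lower at an adjusted p under 0.05 and 0 were higher, where 1.29% of all genes tested were lower and 0.525% higher. At an unadjusted p under 0.05, 7 were lower and 2 higher, beside 10.4% and 6.01% of all genes. The 2 include Lum, which passed the filter mainly through mice given QDG. In 4 of 34 all mice given QDG were below all Ang II mice, beside 3.44% of all genes. The change was above 0 in 10 of 34 against 46.3% of all genes, and the median log2 fold change was −0.094 against −0.019 over all genes. That median ran from −0.17 to 0.0078 when 1 mouse was left out, and was above 0 without Ang II mouse 1. Against Control, for mice given QDG, limma called 0 of 34 at an adjusted p under 0.05, beside 0.097% of all genes higher and 0.0323% lower. Unadjusted, 10 were higher and 0 lower in that comparison, beside 10.7% and 3.72% of all genes. The 10 include Lum, and also Col5a1, which passed the filter through infused mice alone, so that count is a description only. Sparc, Col15a1 and Lum lay above Control in every mouse given QDG, where 2.78% of all genes did, but Lum had passed the filter mainly through that group and the count is a description only. The change was above 0 in 28 of 34 against 62.5% of all genes, and the median log2 fold change was 0.22 against 0.059, or 0.084 without Ang II + QDG mouse 4. The first comparison and the second share the Ang II mice, so a high value in those mice raises one difference and lowers the other.

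**Figure D1:**
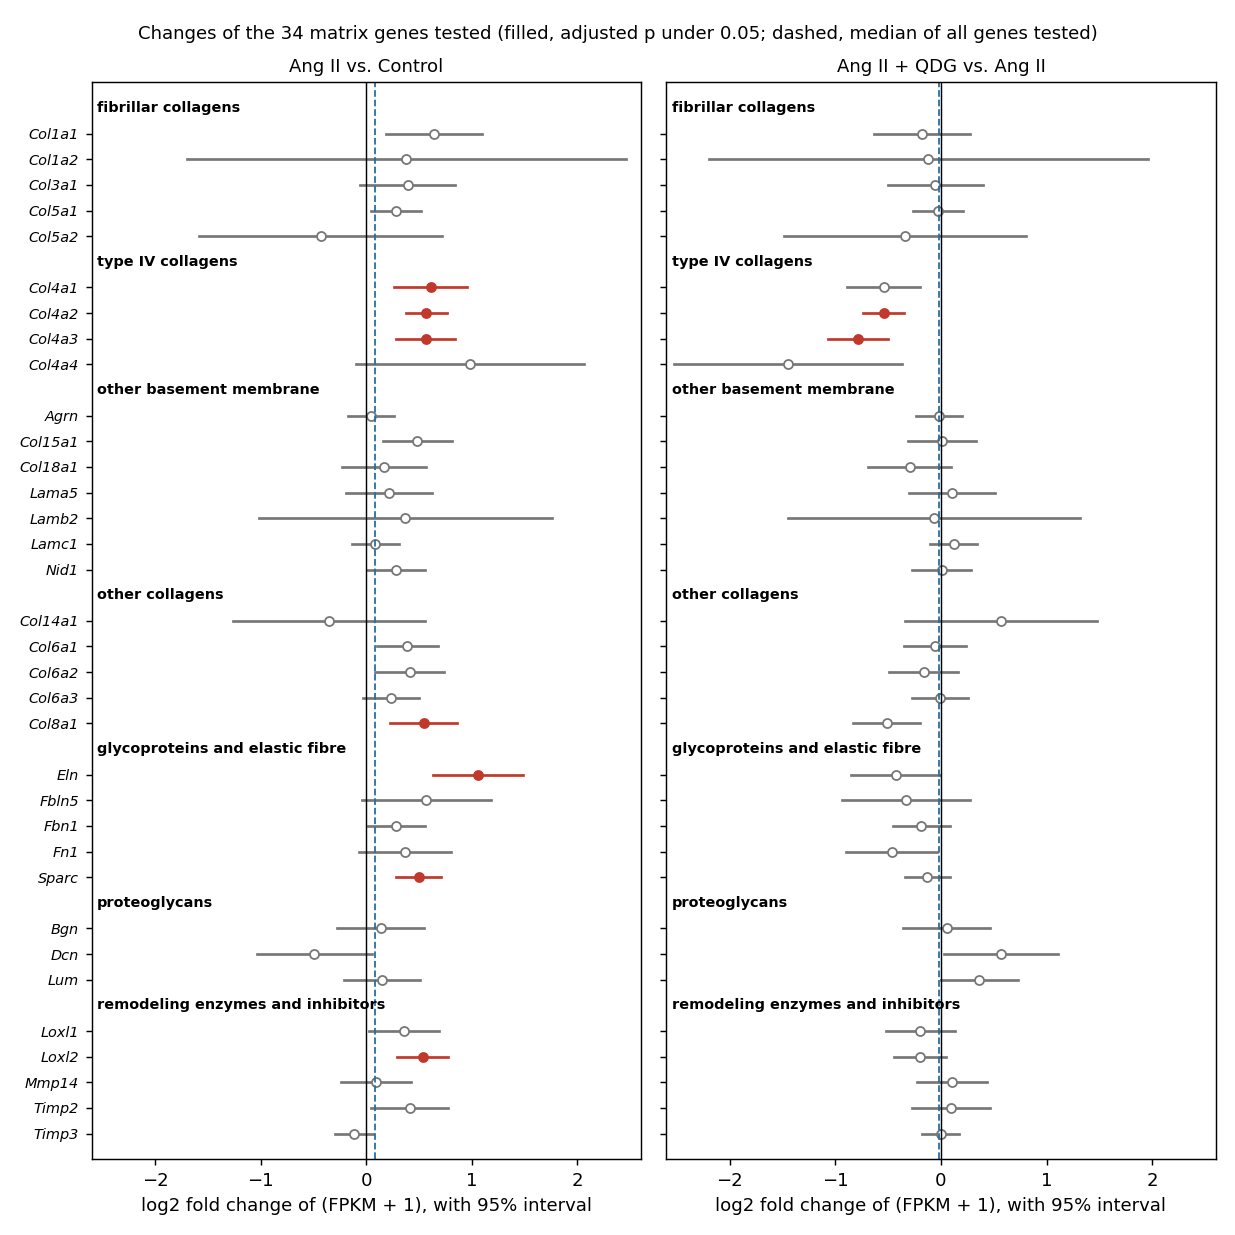
Log2 fold change of FPKM + 1 with its 95% interval for the 34 matrix genes tested, grouped by role, for Ang II vs. Control on the left and for the addition of QDG to Ang II on the right. Filled red points passed an adjusted p under 0.05, and the dashed line is the median over all genes tested. In the left panel 30 points lie above 0, and in the right panel all 4 type IV collagens lie below 0.

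Among the type IV collagens, all 4 genes tested had their highest mean in the Ang II group. Col4a2, a chain of the ubiquitous network (ENSMUSG00000031503, GRCm38 chromosome 8, 11312805 to 11449287), was 24.1, 25.9, 20.6, 27.6 and 24.3 FPKM in the Control mice, 38.8, 35.2, 41.6, 30.2 and 38.8 in the Ang II mice and 25.4, 27.6, 24.1, 24.8 and 22.7 in the mice given Ang II + QDG. Every Ang II mouse was above every mouse of the other groups, which overlapped each other. On the log2 scale the difference was 0.57 (SE 0.092, adjusted p = 0.00712 from limma) for Ang II vs. Control and −0.54 (SE 0.092, adjusted p = 0.0148 from limma) when Ang II + QDG was compared with Ang II. The means in Ang II + QDG and Control were 24.9 ± 1.79 and 24.5 ± 2.59 FPKM (SD, n = 5), with a 95% interval of the log2 difference from −0.17 to 0.22.

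Col4a1, the partner chain on the opposite strand, was 35.6, 39.5, 28.2, 36.0 and 19.0 FPKM in the Control mice, 49.9, 45.7, 54.7, 38.4 and 50.3 in the Ang II mice and 30.6, 37.3, 30.1, 32.7 and 31.0 in the mice given Ang II + QDG. Ang II mouse 4 lay below Control mouse 2, while all Ang II mice were above all Ang II + QDG mice. Its log2 fold change was 0.61 (SE 0.162, adjusted p = 0.0407) for Ang II vs. Control and −0.54 (adjusted p = 0.10) when Ang II + QDG was compared with Ang II, so the second passed only unadjusted. The call in Ang II vs. Control was lost in 9 of 15 fits that each left out 1 mouse, with adjusted p up to 0.0905.

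Col4a3, a chain of the glomerular basement membrane network (chromosome 1, 82586921 to 82722059), was 28.3, 32.6, 29.3, 31.8 and 31.2 FPKM in the Control mice, 36.3, 46.9, 67.1, 36.5 and 47.7 in the Ang II mice and 25.3, 25.6, 28.8, 24.1 and 27.1 in the mice given Ang II + QDG. Every Ang II mouse was above every other mouse, and Ang II mouse 3 was the highest. The fitted log2 difference was 0.56 (SE 0.132, adjusted p = 0.0261) for Ang II vs. Control and −0.78 (SE 0.132, adjusted p = 0.0148) when Ang II + QDG was compared with Ang II. The first call was lost without Control mouse 1, Control mouse 3, Ang II mouse 2 or Ang II mouse 5, with adjusted p up to 0.0625. It was also lost with quantile normalization (0.47, adjusted p = 0.0751), with median scaling (0.47, adjusted p = 0.0821) and with only the 2 groups compared (adjusted p = 0.0709), as was that of Col4a1, with adjusted p of 0.0924, 0.0838 and 0.0956. Col4a2 kept its call in these 3. With only the 2 groups compared the Col4a3 call with QDG was lost too (adjusted p = 0.0596). With Ang II mice 2 and 5 both left out, Col4a3 gave 0.53 (adjusted p = 0.129) for Ang II vs. Control and lost its call with QDG too, at −0.75 (adjusted p = 0.0949), whereas Col4a2 kept its call against Control at 0.56 (adjusted p = 0.0468) and lost that with QDG at −0.54 (adjusted p = 0.0899).

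Col4a4, the partner of Col4a3, was uneven. It was 2.16, 1.45, 11.6, 2.98 and 2.19 FPKM in the Control mice, 3.11, 11.7, 18.8, 2.58 and 9.10 in the Ang II mice and 3.36, 1.40, 2.32, 1.06 and 2.46 in the mice given Ang II + QDG. Its coding transcript was under 0.1 FPKM in 12 mice and reached 8.10 FPKM in Control mouse 3, 13.1 in Ang II mouse 3 and 4.96 in Ang II mouse 5. The remainder was a retained-intron transcript of 1.06 to 11.7 FPKM. The log2 fold change was 0.98 (95% interval −0.097 to 2.06, adjusted p = 0.270) for Ang II vs. Control and −1.45 (adjusted p = 0.161) when Ang II + QDG was compared with Ang II. Within each mouse, the log2 ratio of Col4a3 to Col4a1 was −0.0045 ± 0.41 in the Control mice, −0.053 ± 0.27 in the Ang II mice and −0.29 ± 0.19 in the mice given Ang II + QDG (SD, n = 5), and that of Col4a3 to Col4a4 was 2.93 ± 0.97, 2.51 ± 0.74 and 3.17 ± 0.40. None of 9 two-sided exact permutation tests on these ratios and on Col1a1 to Col1a2 passed, with the smallest p at 0.119 (adjusted p = 0.548), where 5 against 5 mice can reach 0.00794. Col4a6 was listed only in Ang II and Ang II + QDG mice, at 0.14 to 0.97 FPKM, and was not compared, and Col4a5 was not analysed here.

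**Figure D2:**
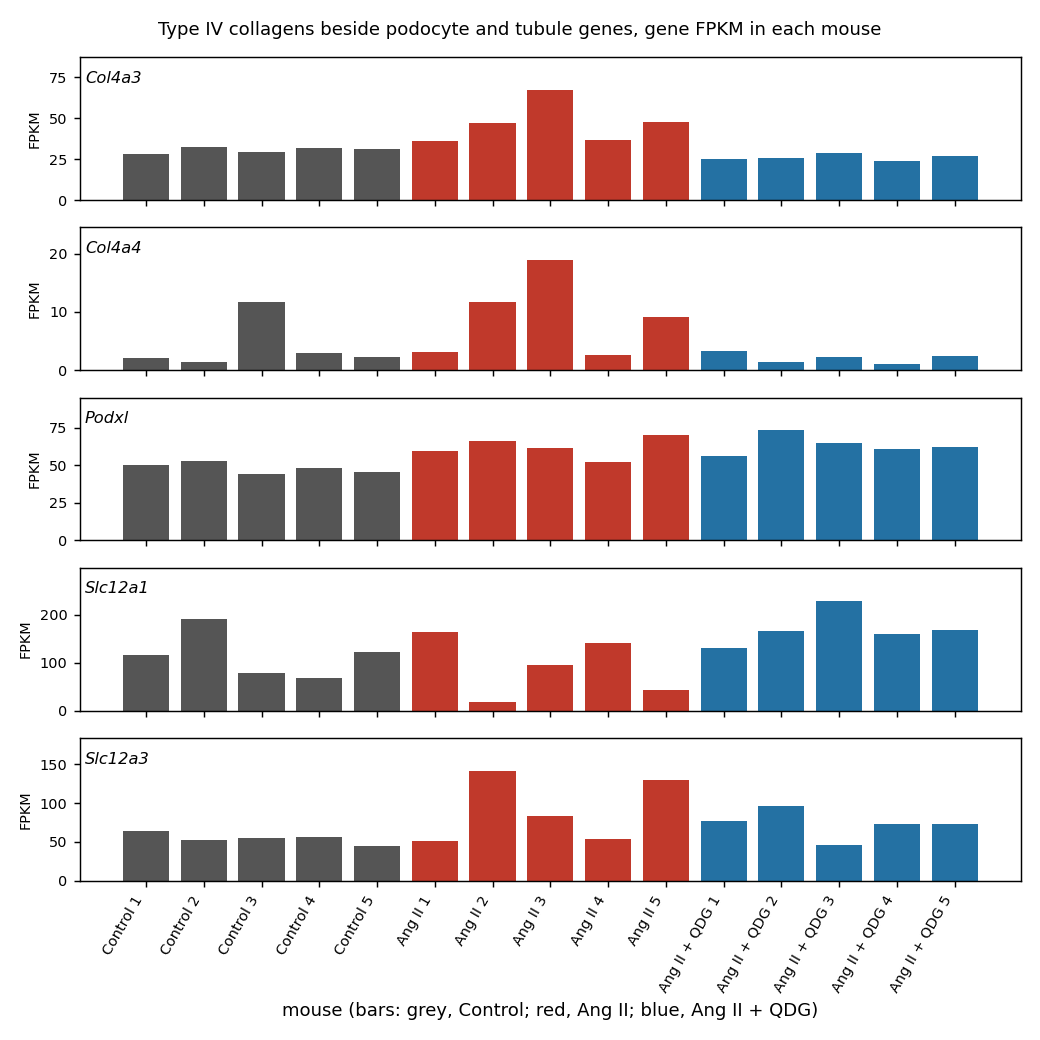
Gene FPKM in each of the 15 mice for Col4a3 and Col4a4, the podocyte gene Podxl, and the tubule genes Slc12a1 and Slc12a3. Col4a3 is 36.3 FPKM or more in every Ang II mouse and 32.6 or less elsewhere, Podxl is 52.3 to 70.3 FPKM in Ang II mice and 56.1 to 73.1 in mice given QDG, and Ang II mice 2 and 5 show the lowest Slc12a1 and the highest Slc12a3.

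Podocytes are a known source of the Col4a3 chain, and their markers are given beside it. Podxl, which encodes podocalyxin of the podocyte surface and of endothelium, was 48.2 ± 3.33 FPKM in the Control mice, 62.1 ± 6.84 in the Ang II mice and 63.4 ± 6.29 in the mice given Ang II + QDG (SD, n = 5), with a log2 fold change of 0.35 (adjusted p = 0.0278) in Ang II vs. Control. Of 7 podocyte markers, 6 were tested and 1, Podxl, was called higher in that comparison, beside 4.95% of all genes, and a count this small is a description only. Their summed level was 64.1 to 81.2 FPKM in the Control mice, 79.3 to 99.6 in the Ang II mice and 88.5 to 106 in the mice given Ang II + QDG. The ranges of both infused groups overlapped. Col4a3 was below its Control mean in every Ang II + QDG mouse. The part of podocyte RNA in the Col4a3 differences was not tested, for Ang II vs. Control or with QDG.

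Of the other basement membrane genes, none of 7 tested passed an adjusted p under 0.05 with limma in any comparison, and unadjusted 2 were higher in Ang II vs. Control and 2 in mice given QDG vs. Control, beside 17.9% and 10.7% of all genes. Col15a1, a collagen of vascular and muscle basement membranes, was 1.88, 1.91, 1.49, 2.08 and 1.25 FPKM in the Control mice, 4.06, 2.24, 1.89, 2.56 and 3.60 in the Ang II mice and 2.81, 3.36, 2.31, 3.00 and 2.66 in the mice given Ang II + QDG. Here the Ang II + QDG mice were all above the Control mice, and the Ang II mice overlapped both. On the log2 scale the difference was 0.49 (adjusted p = 0.0738) in Ang II vs. Control and 0.50 (adjusted p = 0.162) in Ang II + QDG vs. Control, and the interval of the difference between Ang II + QDG and Ang II ran from −0.31 to 0.34. The laminin chains Lama5 and Lamc1, the linker Nid1 and the proteoglycan Agrn had log2 fold changes of 0.045 to 0.28 in Ang II vs. Control. Col18a1, the endostatin precursor, was 7.93 to 20.4 FPKM over the 15 mice with a log2 fold change of 0.17. Lamb2, a laminin chain of the glomerular basement membrane, ranged from 0.69 to 15.3 FPKM over the 15 mice and its interval ran from −1.01 to 1.76. Hspg2, which encodes perlecan, was represented by a short transcript of at most 1.13 FPKM and was not tested.

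The fibrillar collagens had no gene that passed an adjusted p under 0.05 (0 of 5 tested in each comparison with limma), and 2 were higher unadjusted in Ang II vs. Control, with 2 also higher in mice given QDG than in Control, beside 17.9% and 10.7% of all genes. In both counts 1 of the 2 was Col5a1, which passed the filter through infused mice alone. Col1a1, the main chain of type I collagen, was 2.81, 2.19, 1.45, 2.69 and 1.41 FPKM in the Control mice, 6.79, 3.18, 2.56, 2.86 and 4.43 in the Ang II mice and 2.94, 4.41, 3.17, 3.23 and 2.42 in the mice given Ang II + QDG. Ang II mouse 1 was the highest, and the remaining Ang II mice lay in or near the range of the other groups. The fitted log2 difference was 0.64 (SE 0.212, adjusted p = 0.0903) for Ang II vs. Control and −0.18 (95% interval −0.64 to 0.27) when Ang II + QDG was compared with Ang II, and without Ang II mouse 1 these Col1a1 values were 0.46 and −0.0053. Col3a1, the chain of type III collagen, was 3.40, 2.99, 2.99, 4.05 and 2.39 FPKM in the Control mice, 8.62, 3.49, 2.67, 3.51 and 5.53 in the Ang II mice and 4.37, 4.78, 4.27, 4.01 and 3.69 in the mice given Ang II + QDG. Again Ang II mouse 1 stood above all others, and the log2 fold change was 0.39 (adjusted p = 0.291), or 0.19 without that mouse. Col5a1, which regulates fibre width, was 0.47 to 1.56 FPKM over the 15 mice with a log2 fold change of 0.28 (adjusted p = 0.15), and of the 5 mice that reached 1 FPKM 2 were Ang II mice, 3 were given QDG and none was a Control mouse.

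Col1a2, whose chain pairs with that of Col1a1, did not follow it in these files. It was 0, 6.08, 0.067, 0 and 4.54 FPKM in the Control mice, 12.5, 0, 0.12, 0.17 and 7.86 in the Ang II mice and 6.55, 0, 0.32, 9.19 and 0.008 in the mice given Ang II + QDG. In 9 of 15 mice it was under 0.4 FPKM, and such mice occurred in every group, while Col1a1 was at least 1.41 FPKM in all. Col5a2 was likewise under 0.4 FPKM in 9 mice and up to 3.998 in others. Transcripts that the authors assembled without a gene name held 9.57% to 11.9% of the summed FPKM, and whether they hold the missing reads was not tested. A change of 1 group could not be resolved for Col1a2, with an interval of −1.70 to 2.46 for Ang II vs. Control. Col5a3 was not analysed here.

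**Figure D3:**
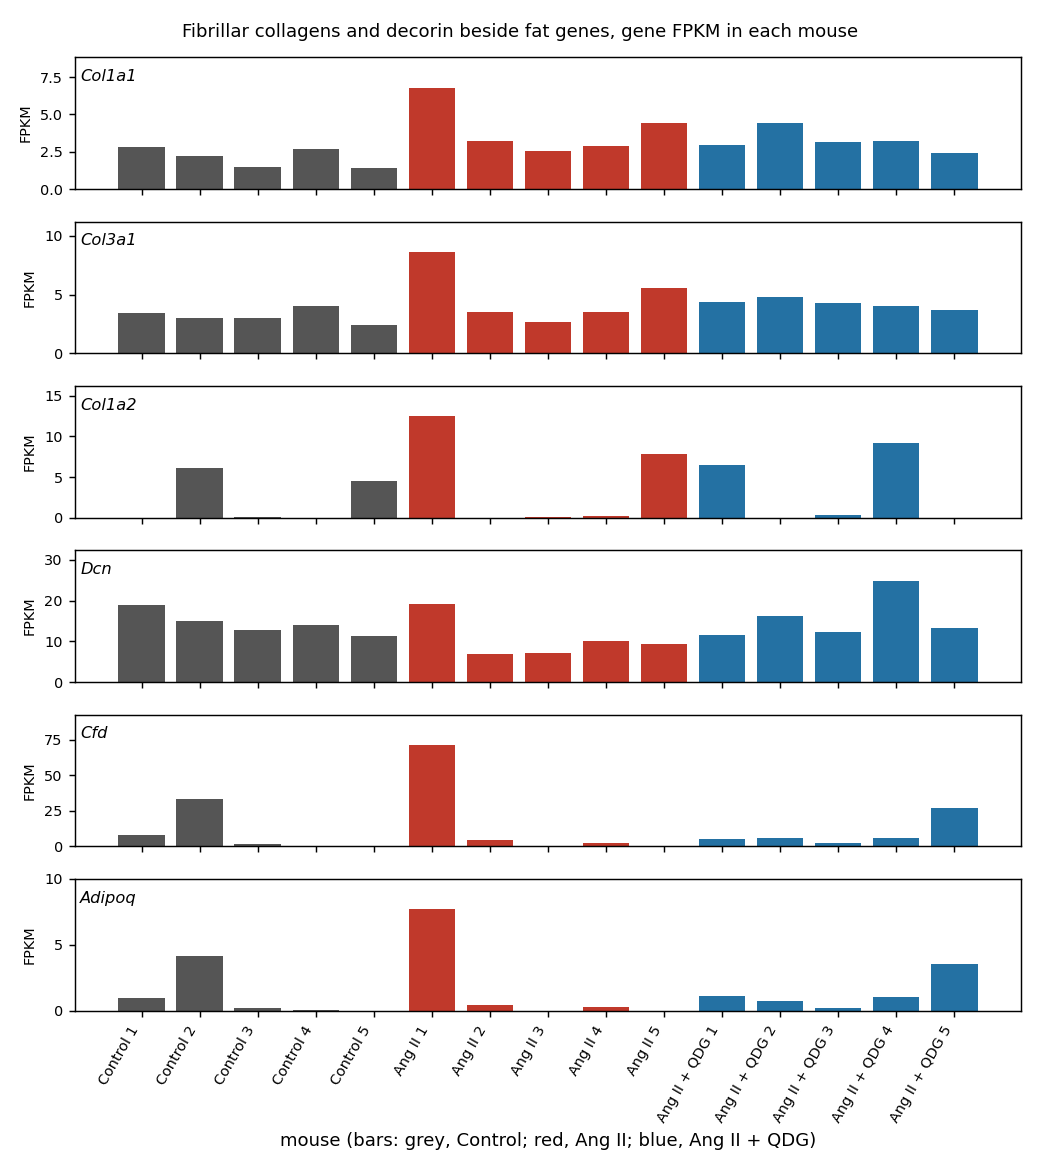
Gene FPKM in each mouse for the fibrillar collagens Col1a1, Col3a1 and Col1a2, the proteoglycan gene Dcn and the fat genes Cfd and Adipoq. Ang II mouse 1 is the highest in Col1a1, Col3a1, Col1a2, Cfd and Adipoq, and Col1a2 is near 0 in 9 of 15 mice.

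The summed fat markers and the fibrillar collagens Col1a1 and Col3a1 were highest in the same library, Ang II mouse 1. There Cfd was 71.4 and Adipoq 7.69 FPKM, and the 5 fat markers summed to 246 FPKM, where the group medians were 31.8 for Control, 37.1 for Ang II and 48.6 for Ang II + QDG. The highest sums were 137.5 in Control and 104 in Ang II + QDG. Control mouse 2 and Ang II + QDG mouse 5 had the most Cfd of their groups, 33.3 and 26.7 FPKM. Col1a1 was 2.19 and 2.42 FPKM there and Col3a1 2.99 and 3.69, none of them the highest of its group. Col5a1, Col5a2 and Col1a2 were the highest of the Control group in Control mouse 2, at 0.92, 3.86 and 6.08 FPKM. In Ang II + QDG mouse 5 none of them was the highest of its group. Without the mouse with the highest Cfd in each group, 4 of the 31 matrix genes then tested were called higher in Ang II vs. Control, namely Col4a2, Col4a3, Sparc and Loxl2, beside 330 of all 12089 genes. With QDG added, 1 was called lower, namely Col4a3, where 27 of all genes were called and 4 of those were higher. Of the calls lost with limma, Eln was then at 0.91 (adjusted p = 0.0517) and Col4a1 at 0.68 (adjusted p = 0.0673) for Ang II vs. Control. Col8a1 was at 0.56 (adjusted p = 0.0590) there, and Col4a2 at −0.49 (adjusted p = 0.0856) with QDG. With all mice these were 1.06, 0.61, 0.55 and −0.54. The fits had fewer mice, and the cause of the lost calls was not tested. The part of fat tissue in the fibrillar collagen values was not tested.

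Of the other collagens, Col8a1, a short-chain collagen of vessels and glomeruli, was 2.56, 1.67, 2.25, 1.89 and 3.65 FPKM in the Control mice, 2.78, 4.12, 5.07, 3.80 and 3.90 in the Ang II mice and 2.47, 2.37, 2.77, 2.16 and 2.35 in the mice given Ang II + QDG. All Ang II mice were above all Ang II + QDG mice, but Control mouse 5 overlapped Ang II. The log2 fold change was 0.55 (SE 0.148, adjusted p = 0.0454) for Ang II vs. Control and −0.51 (adjusted p = 0.0917) when Ang II + QDG was compared with Ang II. The first call was lost in 13 of 15 fits that left out 1 mouse, with adjusted p up to 0.0934. The type VI chains Col6a1, Col6a2 and Col6a3, which form beaded microfilaments around cells, had log2 fold changes of 0.39, 0.41 and 0.23 in Ang II vs. Control, with adjusted p of 0.105, 0.127 and 0.278. Col14a1, a collagen that binds fibril surfaces, ranged from 0.36 to 4.65 FPKM with an interval of −1.26 to 0.56. Col12a1 was listed only in Ang II and Ang II + QDG mice, at 0 to 0.74 FPKM.

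**Figure D4:**
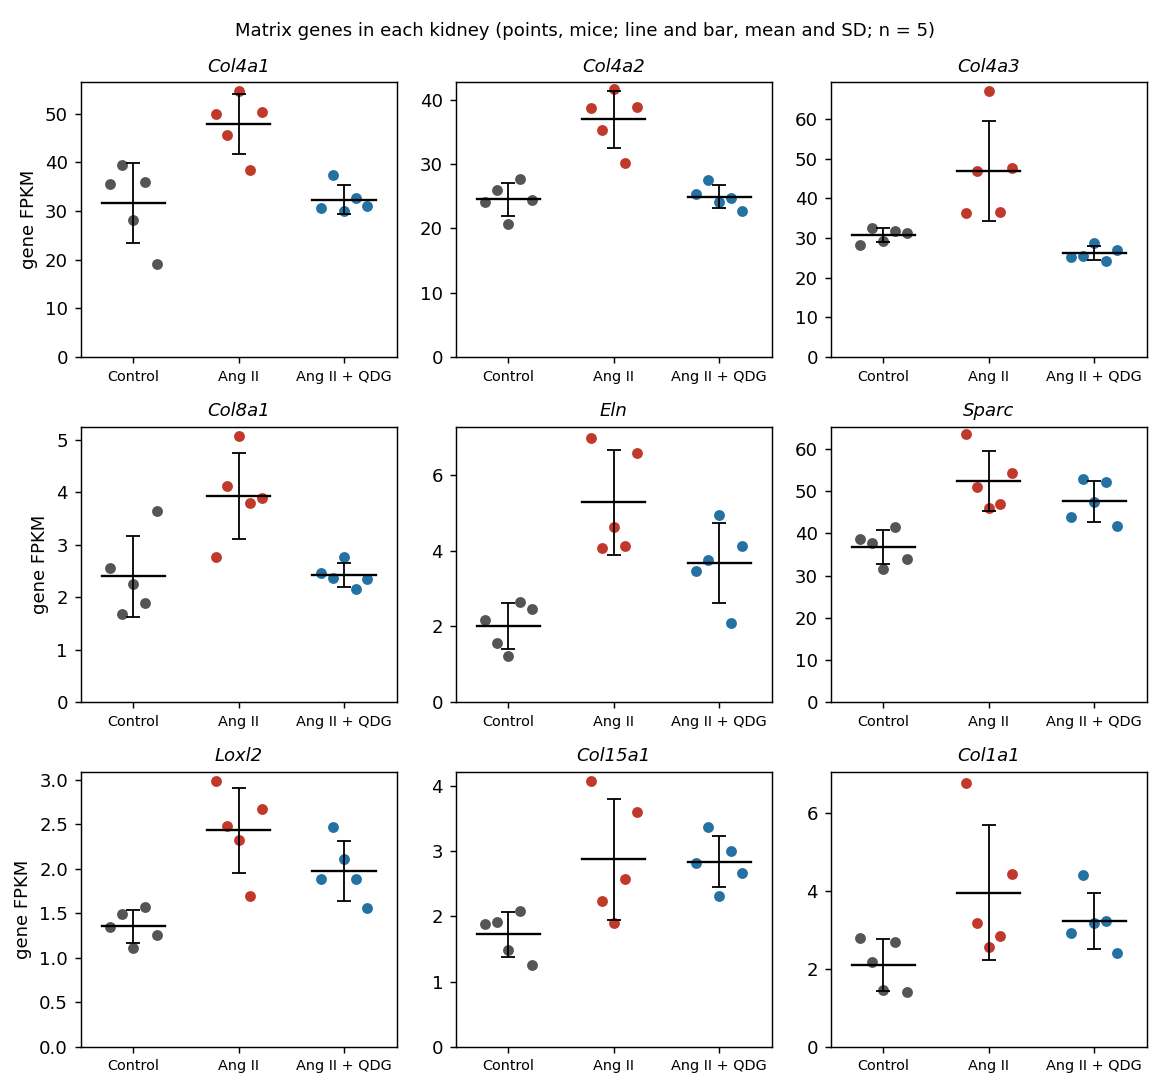
Gene FPKM of 9 matrix genes in each mouse, with the mean (line) and SD (bar) of each group, n = 5. For Col4a2 and Col4a3 all Ang II points lie above all others, for Col8a1 they lie above those of Ang II + QDG, and for Sparc and Col15a1 all Ang II + QDG points lie above Control.

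Among the glycoproteins and elastic fibre genes, Eln and Sparc rose in Ang II vs. Control. All 5 genes tested had a fitted change above 0, as did 64.8% of all genes. Eln, which encodes elastin, was 2.15, 1.56, 1.21, 2.65 and 2.44 FPKM in the Control mice, 6.97, 4.07, 4.61, 4.13 and 6.57 in the Ang II mice and 3.46, 3.74, 4.94, 2.08 and 4.13 in the mice given Ang II + QDG. The Ang II and Control mice did not overlap, and the Ang II + QDG mice overlapped both. Its log2 fold change of 1.06 (SE 0.197, adjusted p = 0.0111) was the largest of the 34 in Ang II vs. Control, and it was −0.43 (adjusted p = 0.295) in Ang II + QDG vs. Ang II. On the coding transcript alone the first became 0.90 (adjusted p = 0.0746 from limma). There Ang II and Control overlapped, with 1.34 FPKM in Ang II mouse 3 and 1.56 in Control mouse 2. The retained-intron transcript was 3.27 FPKM in Ang II mouse 3.

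Sparc, a collagen-binding matricellular glycoprotein, was 38.7, 37.8, 31.7, 41.6 and 33.9 FPKM in the Control mice, 63.6, 51.0, 45.9, 46.9 and 54.3 in the Ang II mice and 44.0, 52.9, 47.5, 52.1 and 41.7 in the mice given Ang II + QDG. All mice infused with angiotensin II, with or without QDG, were above all Control mice. On the log2 scale the difference was 0.50 (SE 0.101, adjusted p = 0.0154) in Ang II vs. Control, 0.37 (adjusted p = 0.132) in Ang II + QDG vs. Control and −0.13 (95% interval −0.35 to 0.086) in Ang II + QDG vs. Ang II. Without Ang II mice 2 and 5 the log2 fold changes in Ang II vs. Control were 0.48 for Sparc and 1.05 for Eln. Both calls were lost with limma, at adjusted p of 0.0858 and 0.0606, where calls over all genes fell from 735 to 82. The cause of these losses was not tested.

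Fn1, which encodes fibronectin, was 1.05, 1.40, 1.33, 1.70 and 1.09 FPKM in the Control mice, 3.62, 1.99, 1.58, 2.14 and 1.07 in the Ang II mice and 2.13, 0.92, 1.13, 0.65 and 1.18 in the mice given Ang II + QDG. Ang II mouse 1 was again the highest and the groups overlapped. The fitted log2 difference was 0.37 (adjusted p = 0.305) for Ang II vs. Control and −0.47 (adjusted p = 0.262) when Ang II + QDG was compared with Ang II, and without Ang II mouse 1 these Fn1 values were 0.21 and −0.31. Fbn1, the fibrillin of microfibrils, was 0.58 to 1.72 FPKM with a log2 fold change of 0.29 (adjusted p = 0.189), and Fbln5, which helps to assemble elastic fibres, was 4.95 to 17.7 FPKM with 0.57 (adjusted p = 0.255). Tnc and Postn, matricellular genes of injury, were not analysed here.

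Of the small leucine-rich proteoglycans, Dcn and Lum were higher in mice given QDG than in Ang II mice at an unadjusted p only, and these 2 of 34 members are near the 6.01% of all genes. Dcn, which encodes decorin, had a mean of 14.4 ± 2.84 FPKM in the Control mice, 10.5 ± 5.04 in the Ang II mice and 15.6 ± 5.46 in the mice given Ang II + QDG (SD, n = 5), and its log2 fold change in Ang II + QDG vs. Ang II was 0.57 (adjusted p = 0.276). In Ang II it was 6.79 to 10.2 FPKM in 4 mice and 19.2 in mouse 1, the library with the high fat genes. Lum, which encodes lumican, had a mean of 0.50 FPKM for Control, 0.70 for Ang II and 1.14 for Ang II + QDG, and every Ang II + QDG mouse was above every Control mouse. Of the mice with at least 1 FPKM of Lum, 4 of 5 were given QDG, and none was a Control mouse. Its log2 fold change was 0.36 (adjusted p = 0.302) in Ang II + QDG vs. Ang II and 0.51 (adjusted p = 0.190) in Ang II + QDG vs. Control. Bgn, which encodes biglycan, was 35.0 to 73.5 FPKM with a log2 fold change of 0.14 in Ang II vs. Control. Vcan was not analysed here.

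Of the remodeling enzymes and inhibitors, Loxl2, a lysyl oxidase that cross-links type IV collagen, was 1.34, 1.49, 1.11, 1.57 and 1.26 FPKM in the Control mice, 2.99, 2.48, 2.33, 1.70 and 2.67 in the Ang II mice and 1.88, 2.47, 2.11, 1.88 and 1.56 in the mice given Ang II + QDG. Every Ang II mouse was above every Control mouse. The log2 fold change was 0.54 (SE 0.114, adjusted p = 0.0175) in Ang II vs. Control, with 0.49 (adjusted p = 0.108) without Ang II mice 2 and 5, and −0.20 (95% interval −0.44 to 0.045) in Ang II + QDG vs. Ang II. Loxl1, which acts on elastin, was 2.11 to 5.32 FPKM with 0.36 (adjusted p = 0.182), and Lox was left with 1 transcript of at most 1.03 FPKM and was not tested.

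Timp3, the matrix-bound inhibitor of metalloproteinases, had by far the highest level of the members, at 520 ± 47.8 FPKM in the Control mice, 481 ± 57.2 in the Ang II mice and 478 ± 12.2 in the mice given Ang II + QDG (SD, n = 5). Its log2 fold change was −0.12 (95% interval −0.29 to 0.061) in Ang II vs. Control. Over the 15 mice the next levels were Bgn at 53.9 ± 11.5, Sparc at 45.6 ± 8.47, Col4a1 at 37.3 ± 9.58, Col4a3 at 34.6 ± 11.5 and Col4a2 at 28.8 ± 6.63 FPKM (SD, n = 15), each within 1 SD of its neighbour. Timp2 was 8.72 to 21.8 FPKM with a log2 fold change of 0.41 (adjusted p = 0.173). Timp1, the inhibitor induced in fibrosis, was 0.30, 0.77, 0.51, 0 and 0 FPKM in the Control mice, 1.61, 0, 0.76, 0 and 0.87 in the Ang II mice and 0.67, 0.74, 0.052, 0 and 0 in the mice given Ang II + QDG. Mmp2, a gelatinase, was 0.68, 0.45, 0.42, 0.60 and 0.66 FPKM in the Control mice, 1.56, 1.26, 0.33, 0.33 and 0.77 in the Ang II mice and 0.67, 1.02, 0.41, 0.84 and 0.75 in the mice given Ang II + QDG. Both stayed under the filter and overlapped between all groups. Mmp14, which activates Mmp2, was 2.13 to 4.94 FPKM with a log2 fold change of 0.095.

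At the transcript level, 45 member transcripts were tested among 28812. Only the Col4a2 transcript ENSMUST00000033899 passed in Ang II vs. Control, with a log2 fold change of 0.57 (adjusted p = 0.0210), beside 0.531% of all transcripts higher, and unadjusted 17 were higher and 1 lower, beside 12.2% and 3.73%. With QDG compared with Ang II alone, limma called 0 of 45 at an adjusted p under 0.05, beside 0.0972% of all transcripts, and 5 were lower and 0 higher unadjusted, beside 6.9% and 4.4%. The lowest adjusted p there were 0.0502 for the Col4a3 transcript ENSMUST00000113457 and 0.0537 for that of Col4a2. Against Control, for mice given QDG, it called 0 of 45, beside 0.0243%, with 7 higher and 2 lower unadjusted, beside 7.06% and 2.95%.

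Several genes had stable sums and unstable transcripts. The 2 coding transcripts of Sparc spanned 5.71 to 55.1 FPKM (ENSMUST00000108858) and 4.36 to 36.0 FPKM (ENSMUST00000018737), while their sum stayed between 31.7 and 63.6 FPKM. In Control mice 3 and 5 and in Ang II + QDG mice 1 and 5 the second was the larger, and in the other 11 mice the first. For Fbn1, ENSMUST00000028633 was at least 0.1 FPKM in 6 mice and ENSMUST00000103234 in the other 9, with no mouse showing both at that level. The log2 fold changes of the Sparc transcripts in Ang II vs. Control were 1.16 and −0.29, with adjusted p of 0.378 and 0.871, against 0.50 for the gene.

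**Figure D5:**
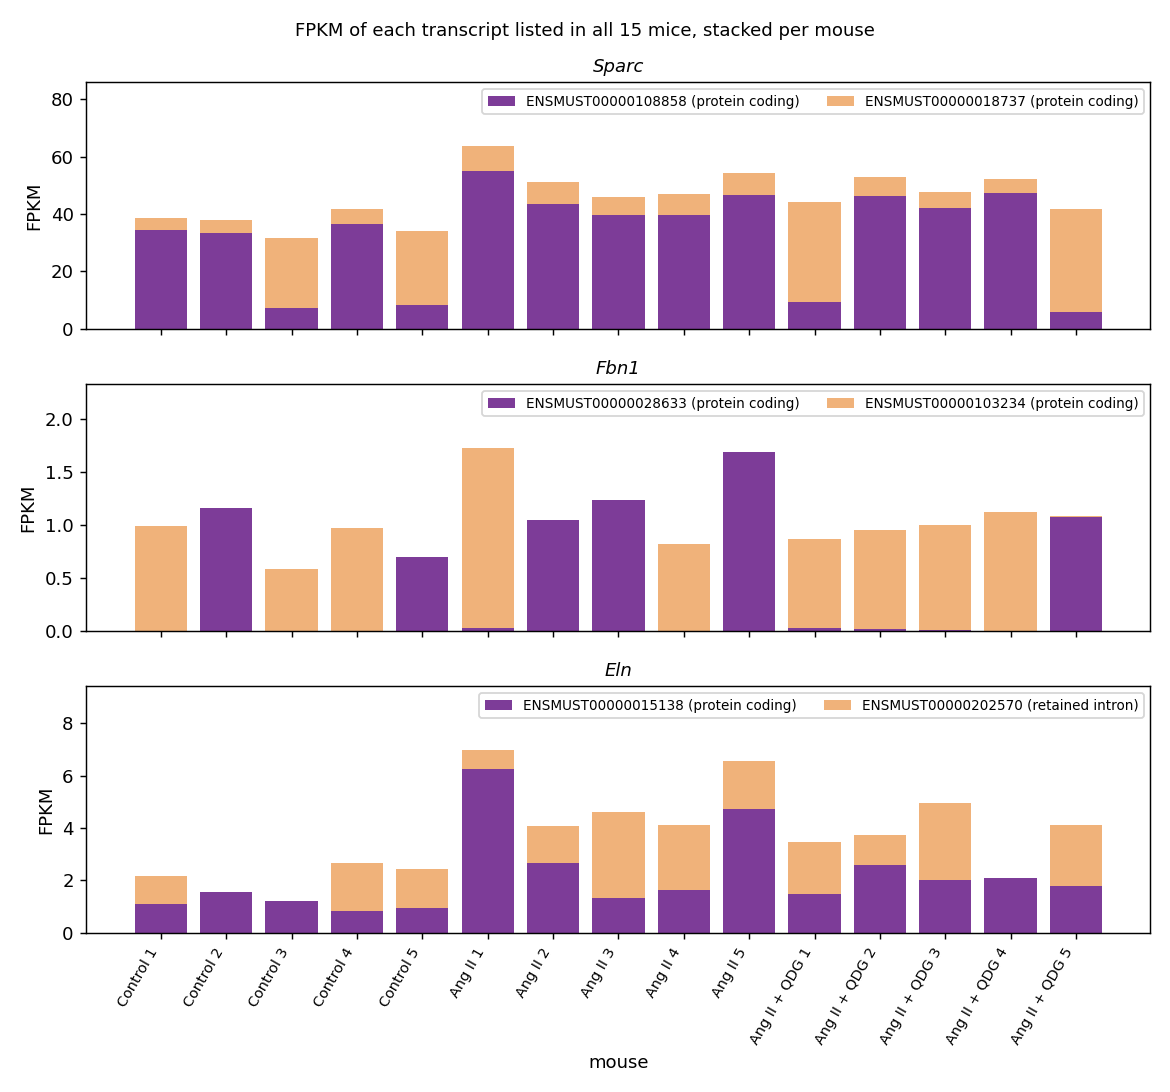
FPKM of each transcript of Sparc, Fbn1 and Eln listed in all mice, stacked per mouse, so that the height of a bar is the gene FPKM. In Sparc and Fbn1 the 2 transcripts trade places between mice of the same group, and in Eln the retained-intron transcript is 0 to 3.27 FPKM.

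Other genes of the matrix pathway were read from a list of 107 names, of which 75 could be tested. In Ang II vs. Control 7 were higher and 0 lower at an adjusted p under 0.05, 5 of 31 other structural genes, 1 of 14 collagen synthesis genes, 1 of 14 proteases and inhibitors, and 0 of 16 matrix receptors, for which limma gave 3 higher and 1 lower unadjusted. Over all genes 4.95% were called higher, and 17.9% were higher and 4.83% lower unadjusted, so the receptors were near that share. Adamts1, a protease of proteoglycans, rose most clearly, from 4.53 to 7.32 FPKM in Control to 8.99 to 12.1 in Ang II, and was 5.69 to 7.67 in Ang II + QDG. Its log2 fold change was 0.81 (adjusted p = 0.00501) for Ang II vs. Control and −0.58 (adjusted p = 0.0274) when Ang II + QDG was compared with Ang II, where 1 of 75 was called, near the 1.29% of all genes called lower. Ltbp4, a binding protein of latent TGF-beta and of elastic fibres, rose by 0.65 (adjusted p = 0.00823), Egfl7, a vascular matrix protein, by 0.92 (adjusted p = 0.0140), and Pcolce, the enhancer of procollagen cleavage, by 0.61 (adjusted p = 0.0228) on the log2 scale. Col27a1 and Col16a1 differed by 2.17 on the log2 scale (adjusted p = 0.0155) and by 1.46 (adjusted p = 0.0270) respectively, but both were under 0.4 FPKM in 3 or more Control mice and above 2 FPKM in the rest, so these rest on mice in which they were nearly absent. Against Control, for mice given QDG, limma called 0 of 75, with 15 higher and 2 lower unadjusted, beside 10.7% and 3.72% of all genes.

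Some markers of other cell types were called higher in Ang II vs. Control, and none was called when QDG was added to Ang II. Of 68 marker genes tested in 12 lists, 6 were higher in Ang II vs. Control and 0 lower: Podxl of podocytes, Egfl7, Ehd3 and Tie1 of endothelium, Pdgfrb of pericytes and mesangium, and Tagln of smooth muscle. Over all genes 4.95% were called higher. Unadjusted, 16 of 68 were higher and 2 lower, beside 17.9% and 4.83% of all genes. The endothelial markers summed to 70.2 to 99.9 FPKM in the Control mice, 84.9 to 112 in the Ang II mice and 85.9 to 111 in the mice given Ang II + QDG. Fibroblast and pericyte markers summed to 7.90 to 15.8, 14.6 to 20.4 and 15.3 to 21.3 FPKM, with Pdgfrb at most 0.002 FPKM in Control mice 2 and 3. Smooth muscle and myofibroblast markers summed to 63.5 to 78.9, 68.1 to 132 and 80.9 to 97.1 FPKM. Blood cell markers summed to 545 to 1362, 1115 to 1943 and 1557 to 2818 FPKM, leukocyte markers to 35.3 to 53.9, 28.2 to 45.4 and 32.9 to 122, mesangial markers to 31.8 to 41.8, 24.8 to 47.5 and 24.2 to 56.1, injury markers to 186 to 229, 222 to 327 and 111 to 230, and urothelium markers to 0.62 to 6.98, 0.82 to 13.8 and 0.67 to 7.98. Proximal tubule markers summed to 4829 to 16429, 5015 to 7022 and 7216 to 11920 FPKM, and distal tubule markers to 1340 to 1806, 1122 to 1643 and 1501 to 2037. Of the proximal tubule, distal tubule, leukocyte, fat, urothelium, blood and injury lists no gene was called in Ang II vs. Control. When mice given QDG were compared with Ang II mice, limma called 0 of the 68, with 8 higher and 2 lower unadjusted, beside 6.01% and 10.4% of all genes, and in Ang II + QDG vs. Control it called 1, the hemoglobin gene Hba-a1. The part of these cell types in the matrix differences was not tested.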

How the data were processed

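Renal tissue of 15 mice was sequenced after rRNA depletion per the labels, while the study's methods also name a kit that isolates poly(A) RNA. Which applied is not settled by these files, and it bears on retained-intron transcripts, which are often not fully processed. The authors deposited a value for each Ensembl or newly assembled transcript in each sample, on mm10, and their processing notes name limma. The aligner, annotation and unit are not given in the sources used here. The deposited values were read as FPKM because multiplying by GENCODE M21 length gave whole multiples of a constant of each sample, within 0.1, for 98.7% to 98.8% of values under 200 reads. Of 31301 Ensembl IDs, 31254 matched GENCODE M21. Files of Control and of the other groups list different transcripts (41477 and 42310), so only the 40054 in all files were used, of which 11141 assembled ones have no gene name.

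FPKM was summed per gene, filtered at 1 FPKM in at least 5 mice, transformed as log2(FPKM + 1) and fitted with limma 3.58.1 (trend, R 4.3.3) in 1 model of 15 mice with a mean per group and 12 residual degrees of freedom, for 12372 genes, and again for 28812 transcripts. P-values were adjusted by Benjamini-Hochberg over all features. The method was tested on simulated data. Ratios were compared by exact permutation tests. The labels name no animals, but the study's methods give 5 mice a group, as many as the samples, so each sample is called a mouse here, numbered in the order of its record. The implied depth was 68922698 to 81329550 reads per mouse.

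The members, pathway and marker lists were chosen with earlier results of these data known. Values of every mouse are printed for members with an adjusted p under 0.05 in any comparison, for those with the lowest unadjusted p up to 10 genes, and for Col1a1, Col1a2, Col3a1, Col4a1, Col4a3, Col4a4, Fn1, Timp1, Tnc and Mmp2 where listed. Other pathway genes are named where called, at most 6 a comparison. Further genes were named after their values were seen. A marker gene that had been listed is not reported here.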

Additional observations from a re-analysis of the deposited data

Results flagged for a closer look

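Among the 15 members whose value is printed for every mouse, 1 value stood far from the others of its group. Col4a4 was 11.6 FPKM in Control mouse 3, against 1.45 to 2.98 FPKM in the other 4 Control mice, a gap of 0.85 of the range of the group. Of 45 such checks about 1 in 20 would be singled out by chance.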

How the results depend on the processing

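No paired analysis was possible because the labels carry no replicate numbers. No value changed direction past a threshold under the alternatives run. In Ang II vs. Control, 7 member genes were called. With a mean of at least 5 FPKM 16 members were tested and 4 called: Eln, Loxl2 and Col8a1 were no longer tested, and the other 4 kept their calls. The number was also 4 with quantile normalization, with median scaling, with only the 2 groups compared, with protein-coding transcripts only, and without the highest Cfd mouse of each group, and 1 (Col4a2) without Ang II mice 2 and 5. Over all genes the 735 calls became 495, 470, 456, 408 and 399 in these settings, in that order, and 82 without Ang II mice 2 and 5. In the other 7 alternatives 7 or 8 members were called. With QDG compared with Ang II alone, 2 genes became 1 with only the 2 groups compared and without the highest Cfd mice, and 0 without Ang II mice 2 and 5. Over all genes the 224 calls of that comparison became 58, 27 and 7, in that order. The 2 alternatives that leave out chosen mice were added after the data were seen.

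For transcripts in Ang II vs. Control, 1 became 2 with a mean of at least 5 FPKM and after rescaling the shared transcripts to an equal total, and 0 with median scaling, with only the 2 groups compared, without the highest Cfd mice and without Ang II mice 2 and 5. When mice given QDG were compared with Ang II mice, 0 became 2 with a mean of at least 5 FPKM, after rescaling and with the robust fit. Leaving out 1 mouse at a time gave 4 to 7 genes and 0 to 2 transcripts in Ang II vs. Control, with 4 genes without Control mouse 1, Control mouse 3, Ang II mouse 2 or Ang II mouse 5. It gave 2 to 3 genes and 0 to 2 transcripts in Ang II + QDG vs. Ang II, and a median log2 fold change of 0.084 to 0.29 in Ang II + QDG vs. Control, lowest without Ang II + QDG mouse 4. Over all genes, leaving out 1 mouse gave 338 to 797 calls in Ang II vs. Control and 53 to 250 in Ang II + QDG vs. Ang II. Apart from genes that the filter removed, the cause of these changes was not tested. Genes near 1 FPKM and transcripts that trade places between mice limit what these data can resolve.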
